A study of Mus musculus with 29 samples.

Results

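Endothelial cells line the blood vessels of a tumour, and their RNA forms part of every bulk tumour extract. They are held together by junction proteins, respond to VEGF and angiopoietins through receptor tyrosine kinases, and carry a shared set of ETS and SOX transcription factors. Pericytes and smooth muscle cells wrap them, and both layers rest on a basement membrane of type IV collagen, laminins and nidogens. The tumours compared here lay at the opposite ends of an endothelial score: the 8 tumours of highest score, called endothelial-rich, and the 8 of lowest score, called endothelial-poor, among 24 primary abdominal neuroblastomas in a series of 29 samples. The groups were chosen by this score, the mean log2 signal of Pecam1, Cdh5, Emcn, Tie1, Ramp2 and Mmrn2, genes of endothelial junctions, surface and matrix, and these 6 genes were left out of all results.

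All samples came from mice labelled as strain 129X1/SvJ that carried the TH-MYCN transgene, in which the tyrosine hydroxylase promoter drives MYCN in the sympathoadrenal lineage and neuroblastoma develops. The labels divide the tumours into 17 deficient for caspase-8, the protease that death receptors switch on to start apoptosis, and 7 wild type for it. Bone marrow samples, 3 deficient and 2 wild type, made up the rest of the series. Each sample was hybridised to 1 mouse 3' expression array, and the deposited values were log2 signals after RMA. Ages were not given in the sources used here. Nothing in the labels ties each tumour to a separate animal, so the p-values speak of the spread among these samples, which may be technical. Tumours are named below by genotype and a number in deposition order. As a check of the labelled tissue, Th, the first enzyme of catecholamine synthesis and a marker of the lineage, was between 10.12 and 11.67 in endothelial-rich tumours and between 10.77 and 11.91 in endothelial-poor tumours, while its mean in marrow was 4.22.

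The score was 6.21, 6.42 and 6.62 (lowest, median and highest) in the endothelial-rich tumours and 4.56, 5.49 and 5.72 in the endothelial-poor tumours. The 8 tumours between them had scores of 5.77 to 6.14, and the 5 marrow samples 4.84 to 5.26. Just inside and outside the upper limit stood deficient tumour 14 at 6.21 and deficient tumour 15 at 6.14, and at the lower limit wild type tumour 2 at 5.72 and deficient tumour 4 at 5.77. These values chose the groups and are given as a description. The rich tumours formed a narrow group (SD 0.13), and the poor tumours a wide one (SD 0.39) that ended in deficient tumour 9 and wild type tumour 5.

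**Figure D1:**
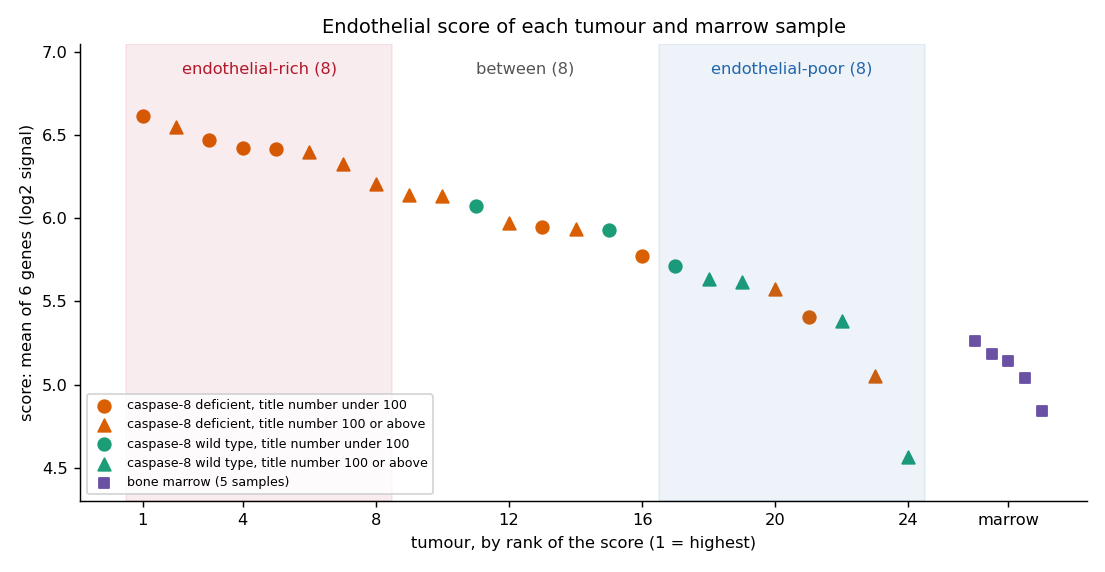
Endothelial score (mean log2 signal of 6 genes, vertical axis) of the 24 tumours by rank and of the 5 marrow samples, with colour for caspase-8 genotype and shape for the number in the sample title. The 8 endothelial-rich tumours lie between 6.21 and 6.62 and are all deficient; the 8 endothelial-poor tumours lie between 4.56 and 5.72 and hold 5 wild type tumours.

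Genotype was not used in choosing the tumours, yet it was unevenly divided. All 8 endothelial-rich tumours were caspase-8 deficient, against 3 of the 8 endothelial-poor tumours (Fisher's exact test, two-sided, p = 0.0256). With the 6 highest against the 6 lowest scores the same test gave p = 0.182, with 10 against 10, where all 10 rich and 4 of 10 poor tumours were deficient, p = 0.0108, and with 12 against 12 p = 0.0687. Since no wild type tumour was rich, a difference between rich and poor tumours cannot be told apart from genotype except among the deficient tumours, of which 8 were rich and 3 poor. Casp8 itself was at 4.94, 5.87 and 6.41 in rich tumours and at 4.68, 5.52 and 6.32 in poor tumours (log2 difference 0.34, limma adjusted p = 0.538). Which exons were deleted is not stated, so this signal does not check the genotype.

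The sample titles number the tumours in a lower series under 100 and a higher one, whose meaning is not stated. The higher series held 4 of 8 rich and 6 of 8 poor tumours (Fisher's exact test, p = 0.608). RNA quality, taken as the excess of 3' over 5' log2 signal in the actin and Gapdh control probe sets, was 0.749 ± 0.231 in rich and 0.702 ± 0.191 in poor tumours (SD, n = 8 each). The difference of 0.0474 was within the spread between tumours (exact permutation test over 12870 splits, two-sided, p = 0.662).

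Across 18187 genes, 271 (1.49%) differed between rich and poor tumours at a limma adjusted p under 0.05. They were nearly all higher in the rich tumours: 260 genes (1.43%) were higher and 11 (0.0605%) lower. For 87 genes (0.478%) every rich tumour lay above every poor tumour, and for 0 genes every rich tumour lay below. All genes were measured on the arrays that gave the score, so these p-values describe association with the score among these tumours and no effect of a treatment. The median log2 difference over all genes was 0.01, and 69 called genes differed by 2-fold or more. At an unadjusted limma p under 0.05 were 2317 of the 18187 genes, the share against which unadjusted counts of lists stand. In 237 of the 271 the mean of the 8 tumours in between lay between those of the rich and the poor tumours. In each of 16 fits that left out 1 tumour, 155 were called. Both counts were favoured in advance, since the genes were picked in these 16 tumours and the score placed the 8 others between.

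Adipocyte gene signal moved with the score (correlation 0.61 over the 24 tumours, not tested). The mean of 12 adipocyte genes was 5.32, 6.38 and 7.46 in rich tumours, against 5.06, 5.33 and 6.18 in poor tumours, so the groups overlapped but the median rich tumour lay above every poor one. With that mean as a term, an analysis added after seeing the data, 270 of 270 called genes outside the covariate had the same sign and 253 an unadjusted p under 0.05. The genes had been picked for their difference in the same 16 tumours, so the same sign and a small p were favoured in advance. Only Sox18 passed the adjusted test in that fit, with a log2 difference of 1.08, and the median difference of the genes called higher was 0.60 in place of 0.73. The adipocyte mean had a correlation of 0.68 with group in the 16 tumours, which makes that fit less precise. Among deficient tumours alone, 310 genes were called (8 rich, 3 poor), 264 of them higher (1.45% of genes), and 165 were among the 271. All 271 had the same sign there, and the median difference of the 260 was 0.88. These tumours were among the 16 in which the genes were picked, so this agreement too was favoured in advance. A fit of all 16 tumours with genotype as a term gives each gene the same difference as the deficient tumours alone. It called 158 genes, 146 of them higher (0.803% of genes). Of the 60 called genes named by rule, 36 did not pass in that fit and 19 did not pass among deficient tumours alone. Within the higher title series 39 genes were called (4 rich, 6 poor) and within the lower series 1 (4 rich, 2 poor). An interaction between score group and title series passed the adjusted test for 0 genes in limma, with 933 at an unadjusted p under 0.05.

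**Figure D2:**
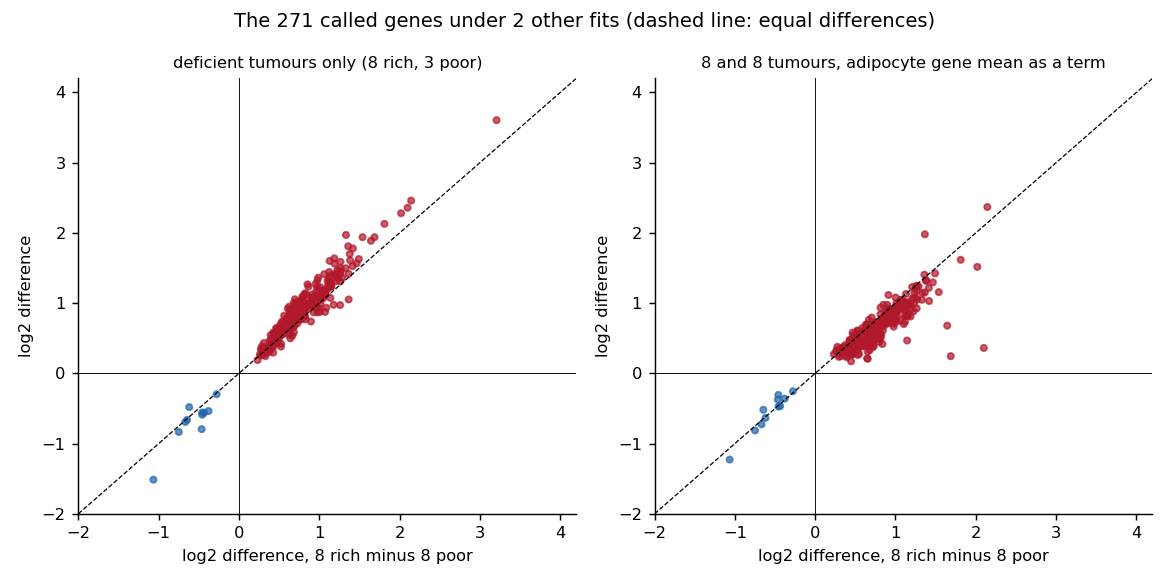
Log2 differences of the called genes in the 8 rich and 8 poor tumours (horizontal axis) against the same genes' differences among deficient tumours only (left) and with the adipocyte gene mean as a term (right); red points were called higher and blue points lower. All 271 genes keep their sign on the left and 270 of 270 on the right, where the median of the genes called higher is 0.60 and that on the left 0.88. The genes were picked in the same tumours, which favours the same sign.

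Most endothelial genes outside the score were called higher in the rich tumours. Of 49 measured, 27 were called higher against 1.43% of all genes, 0 were called lower, and 48 had a positive difference, with a median of 0.69 against 0.01 over all genes. They mark the same cells as the scoring genes, so their direction is not independent of how the tumours were chosen. In bulk tumour RNA, fewer endothelial cells and less RNA per endothelial cell cannot be told apart. The mean of the 49 genes ranged from 5.94 to 6.32 in rich and from 5.00 to 5.58 in poor tumours, without overlap. With genotype as a term 17 were called and among deficient tumours 25, with a median of 0.80, and with the adipocyte mean as a term 1 was called with a median of 0.51.

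The transcription factors of endothelial identity stood near the front of this list. Sox18, a SOX factor of vessel and lymphatic development, was at 6.65, 6.91 and 7.06 in rich tumours and at 5.28, 5.53 and 6.13 in poor tumours. Every rich tumour lay above every poor one, and the log2 difference of 1.23 (SE 0.12, limma adjusted p = 0.000100) had the smallest p of all genes. Its relatives Sox7 and Sox17 differed by 0.85 (SE 0.13) and 1.12 (SE 0.24), with adjusted p of 0.00335 and 0.0240. Ets1, an ETS factor of endothelial cells and lymphocytes, was at 7.70, 7.87 and 8.41 in rich tumours and at 6.68, 6.88 and 7.60 in poor tumours. The ranges did not overlap, and the difference was 1.01 (SE 0.13, adjusted p = 0.00160). The other ETS factors called were Fli1 at 1.13 and Erg at 0.51. The basic helix-loop-helix factors Tal1 at 0.41 and Lyl1 at 0.39 did not pass.

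Surface proteins of the endothelium and other members of the list followed. Cd34, a sialomucin of endothelial and blood progenitor cells, was at 7.03, 7.25 and 8.05 in rich tumours and at 5.23, 5.99 and 6.57 in poor tumours. Its ranges did not overlap, and the difference was 1.38 (SE 0.18, limma adjusted p = 0.00160). Tek, the angiopoietin receptor Tie2, was at 4.07, 4.95 and 5.87 in rich tumours and at 3.33, 3.59 and 4.09 in poor tumours. There 7 of the 8 rich tumours lay above all poor ones, and the difference was 1.26 (SE 0.20, adjusted p = 0.00335). Icam2, a leukocyte adhesion molecule of endothelial junctions, differed by 1.01 (SE 0.15), the membrane protein Tm4sf1 by 1.26 (SE 0.20) and Fam167b by 0.88 (SE 0.11), each with no overlap between the groups. Among the members that did not pass were Flt1, a VEGF receptor that also acts as a decoy, at 0.39 (SE 0.20, adjusted p = 0.424), the clotting factor carrier Vwf at 0.19, the tight junction protein Cldn5 at 0.64 and the nitric oxide synthase Nos3 at 0.36.

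**Figure D3:**
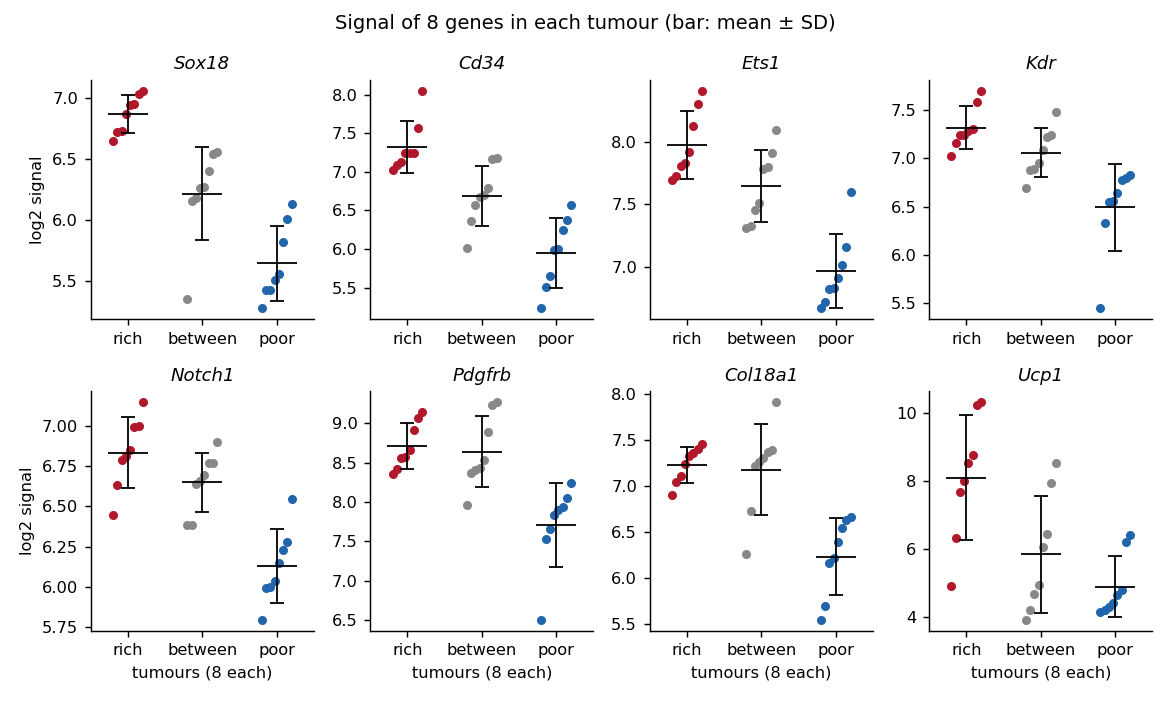
Log2 signal (vertical axis) of 8 called genes in each endothelial-rich, intermediate and endothelial-poor tumour (8 each), with bars for the mean ± SD. The ranges of rich and poor tumours are apart for Sox18, Cd34, Ets1, Kdr, Pdgfrb and Col18a1; for Notch1 7 of 8 and for Ucp1 6 of 8 rich tumours lie above all poor tumours.

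ETS factors bind sites with a GGAA core, and several of them were among the called genes, so the promoters of the called endothelial genes were read for the letters AGGAAG on either strand (CTTCCT on the printed strand). RefSeq promoters of GRCm38.p6, from 250 bases before to 50 bases after the start, were at hand for 16 of the 27 genes, in 19 windows. AGGAAG was present in 12 of the 19 windows, against 35.4% of 32851 promoter windows, and the longer ACAGGAAG, which contains it, in 2 of 19 against 3.58%. A match describes letters and is no evidence of binding, and the signal of an array reports on no promoter. The promoters of Cd34 (chr1:194938571-194938870, plus strand), Robo4 (chr9:37401722-37402021, plus strand) and Eng (chr2:32646345-32646644, plus strand), which hold the letters, and of Tek (chr4:94739039-94739338, plus strand), which does not, are given 5′ to 3′ with the matches in capitals. The match begins at position -142 from the start in Cd34, at -49 in Robo4 and at -52 and -6 in Eng.
Cd34: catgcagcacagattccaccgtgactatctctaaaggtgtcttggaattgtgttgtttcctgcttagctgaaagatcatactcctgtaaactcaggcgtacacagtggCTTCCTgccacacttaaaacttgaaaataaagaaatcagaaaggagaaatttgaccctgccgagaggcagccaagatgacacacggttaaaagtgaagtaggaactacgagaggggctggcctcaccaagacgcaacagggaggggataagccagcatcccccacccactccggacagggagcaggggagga
Robo4: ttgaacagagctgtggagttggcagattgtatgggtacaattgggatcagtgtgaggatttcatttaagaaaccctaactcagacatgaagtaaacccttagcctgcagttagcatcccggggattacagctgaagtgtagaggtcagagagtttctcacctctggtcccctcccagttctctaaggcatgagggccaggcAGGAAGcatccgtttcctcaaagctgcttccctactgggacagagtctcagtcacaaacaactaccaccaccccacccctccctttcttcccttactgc
Eng: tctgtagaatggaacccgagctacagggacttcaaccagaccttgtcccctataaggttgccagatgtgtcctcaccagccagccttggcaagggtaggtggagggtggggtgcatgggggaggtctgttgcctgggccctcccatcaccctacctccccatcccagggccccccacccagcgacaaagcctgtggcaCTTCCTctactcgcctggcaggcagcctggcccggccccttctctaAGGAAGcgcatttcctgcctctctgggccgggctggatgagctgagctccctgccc
Tek: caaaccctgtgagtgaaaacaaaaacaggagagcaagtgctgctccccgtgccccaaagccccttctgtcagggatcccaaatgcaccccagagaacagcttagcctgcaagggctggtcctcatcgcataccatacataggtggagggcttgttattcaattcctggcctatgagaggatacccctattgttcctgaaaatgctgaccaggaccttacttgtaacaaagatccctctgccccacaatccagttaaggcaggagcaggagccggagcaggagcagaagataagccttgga

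Of 28 genes of the VEGF, angiopoietin, apelin and related pathways, 7 were called higher, against 1.43% of all genes, and 0 lower, with a median of 0.31. They were the receptors Kdr, Tek, Aplnr, Calcrl, Pdgfrb and Robo4 and the ligand Pdgfb, while the VEGF receptors Flt1 and Flt4 and all measured VEGF ligands did not pass. With genotype as a term 2 were called, Tek and Calcrl. Among deficient tumours 5 were called. Of the 7, Kdr, Tek, Aplnr, Calcrl and Robo4 are also in the endothelial list, and Pdgfrb is in the pericyte list. Lists that share members do not give separate counts, and the direction of endothelial genes is not independent of the score. Kdr, the main signalling receptor for VEGF-A, was at 7.02, 7.26 and 7.70 in rich tumours and at 5.45, 6.601 and 6.83 in poor tumours. The ranges did not overlap, and the difference was 0.83 (SE 0.16, limma adjusted p = 0.0154). Its ligand Vegfa was at 6.77, 7.56 and 8.35 in rich tumours and at 7.09, 7.52 and 8.09 in poor tumours. The ranges overlapped almost fully, and the difference of -0.09 (SE 0.21, adjusted p = 0.908) turned sign in several other fits, to 0.06 among deficient tumours.

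Aplnr, the receptor for apelin on venous and sprouting endothelium, had the second largest difference of the called genes. It was at 6.51, 7.88 and 9.28 in rich tumours and at 3.70, 5.99 and 6.81 in poor tumours. Of the rich tumours 6 lay above all poor ones, and the difference was 2.14 (SE 0.44, limma adjusted p = 0.0187), a 4.42-fold ratio of signal. With genotype as a term and among deficient tumours the difference was 2.46 and did not pass (adjusted p = 0.0708 and 0.0791). Its ligand Apln was at 0.24 and did not pass. Calcrl, which pairs with a scoring gene's product to form the adrenomedullin receptor, differed by 0.97 (SE 0.19, adjusted p = 0.0137), and Robo4, an endothelial guidance receptor, by 0.80 (SE 0.15, adjusted p = 0.0135).

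Adm, which encodes the ligand adrenomedullin and is a hypoxia-responsive gene, had lower values in rich tumours, opposite to its receptor. It was at 6.77, 7.34 and 9.04 in rich tumours and at 7.84, 8.73 and 9.32 in poor tumours. The difference of -1.09 (SE 0.27, limma adjusted p = 0.0587) did not pass the test, and it passed in 4 of the 16 fits that left out 1 tumour. Pdgfb, the platelet-derived growth factor by which endothelium recruits pericytes, was higher by 0.57 (SE 0.12, adjusted p = 0.0240), as was its receptor Pdgfrb on pericytes.

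Genes of vessel subtypes were read as separate lists, whose counts stand against 1.43% of all genes called higher. Arterial genes had 6 of 18 members called higher (median 0.44), tip cell genes 5 of 18 (median 0.51), genes of sinusoidal and fenestrated vessels 3 of 15 (median 0.31) and venous genes 1 of 13 (median 0.19). Lymphatic genes had 0 of 9 called (4 at an unadjusted limma p under 0.05, with 2 of these higher and 2 lower) and blood-brain barrier genes 0 of 13 (1 unadjusted). Unadjusted counts stand against 2317 of 18187 genes. With genotype as a term the counts were 1 arterial, 3 tip cell, 2 sinusoidal and 0 venous, and among deficient tumours 3, 5, 2 and 0. The arterial count was also 3 without deficient tumour 12 or deficient tumour 17. The difference between these lists was not tested.

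Among arterial genes, Gja4, a connexin of arterial endothelium, was at 4.09, 5.06 and 5.36 in rich tumours and at 3.79, 4.13 and 4.52 in poor tumours, and 7 of 8 rich tumours lay above all poor ones. It differed by 0.77 (SE 0.16, limma adjusted p = 0.0214), Fbln5, an elastic fibre protein, by 1.09, and Gja5, another arterial connexin, by -0.07 without passing. Among tip cell genes, Nid2, a basement membrane linker, differed by 0.91 (SE 0.16, adjusted p = 0.00630) and Rbp7, a retinoid-binding protein, by 2.02 (SE 0.33, adjusted p = 0.00480), while Esm1 at 0.64 and Angpt2 at 0.30 did not pass. The sinusoidal genes called were Rgcc at 1.15, Igfbp7 at 1.07 and the scavenger receptor Stab1 at 0.65. Of the venous genes Aplnr alone was called, with Ephb4 at 0.28, Lrg1 at 0.71 and Icam1 at 0.50. The lymphatic growth factor receptor Flt4 was at 0.39 (adjusted p = 0.0653), Reln at 0.40, Pard6g at -0.19 and Fgf12 at -0.59.

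Through the Notch pathway endothelial cells choose between sprouting and stalk or arterial fates and signal to mural cells. Of 23 genes, 7 were called higher, against 1.43% of all genes, and 0 lower, with a median of 0.22. Notch3 and Heyl are also counted in the pericyte list. Notch1 was at 6.45, 6.83 and 7.15 in rich tumours and at 5.80, 6.10 and 6.55 in poor tumours, and 7 of 8 rich tumours lay above all poor ones. It differed by 0.70 (SE 0.11, limma adjusted p = 0.00335), Notch4, largely an endothelial receptor, by 0.67, and Notch3, a receptor of mural cells, by 0.68. The endothelial ligand Dll4 differed by 0.39 (SE 0.08, adjusted p = 0.0203), and the targets Nrarp, Heyl and Hes1 by 0.90, 0.52 and 0.46. In the alternative fits Notch4 passed in 16 and did not pass in 28, and Hes1 passed in 15 and did not pass in 29. Other probe sets of Notch4 were at -0.07 and 0.26 and were not called. Jag1 at 0.48 (adjusted p = 0.111) and Hey1 at 0.36 did not pass, and the DNA-binding partner Rbpj was at -0.11.

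The count of Notch genes depended on which tumours entered. It was 3 without deficient tumour 12, 4 without each of deficient tumours 2, 3, 13 and 17, 2 among deficient tumours only, where the median was 0.28, and 1 with genotype as a term. With the adipocyte mean as a term it was 0, with a median of 0.26.

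Genes of endothelial TGF-beta and BMP signalling had 2 of 23 called higher, against 1.43% of all genes (median 0.19). Eng, the co-receptor endoglin, was at 6.77, 6.92 and 7.21 in rich tumours and at 6.09, 6.44 and 6.76 in poor tumours, without overlap, and differed by 0.48 (SE 0.10, limma adjusted p = 0.0174). The ligand Tgfb1 differed by 0.39 (SE 0.08, adjusted p = 0.0139). Its signal was low, at 3.76 to 4.14 in rich and 3.24 to 3.76 in poor tumours. Another probe set of Tgfb1 was at -0.09 and was not called. Id3, a BMP target, was at 1.16 (adjusted p = 0.0671) and the receptor Tgfbr2 at 0.66 (adjusted p = 0.122), and neither passed.

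Caveolae, the membrane pits of endothelial cells and adipocytes, were represented by genes of the shear and nitric oxide list. That list had 5 of 18 called higher (median 0.35). This count and those of the next lists stand against 1.43% of all genes called higher. Cavin2 was at 6.67, 7.28 and 8.11 in rich tumours and at 4.81, 5.86 and 6.51 in poor tumours. The ranges did not overlap, and the difference was 1.54 (SE 0.26, limma adjusted p = 0.00515). Cav1, the main caveolin, differed by 1.42 (SE 0.24, adjusted p = 0.00630), Cavin1 by 1.19, Cav2 by 1.06, and Thbd, the anticoagulant receptor thrombomodulin, by 0.83. With the adipocyte mean as a term 0 of the 18 were called, and Cav1 was at 1.03 and Cavin2 at 1.16. Klf2, a factor induced by blood flow, was at 0.50 (adjusted p = 0.0630) and Edn1, which encodes endothelin, at 0.21. Genes of leukocyte adhesion had 2 of 21 called, Icam2 and the junction protein Esam at 0.85, while the inducible molecules Vcam1 at 0.36, Sele at -0.01 and Selp at 0.09 did not pass. Of 17 genes that restrain vessels, Col18a1 alone was called, and Thbs1 was at 0.66 without passing.

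**Figure D4:**
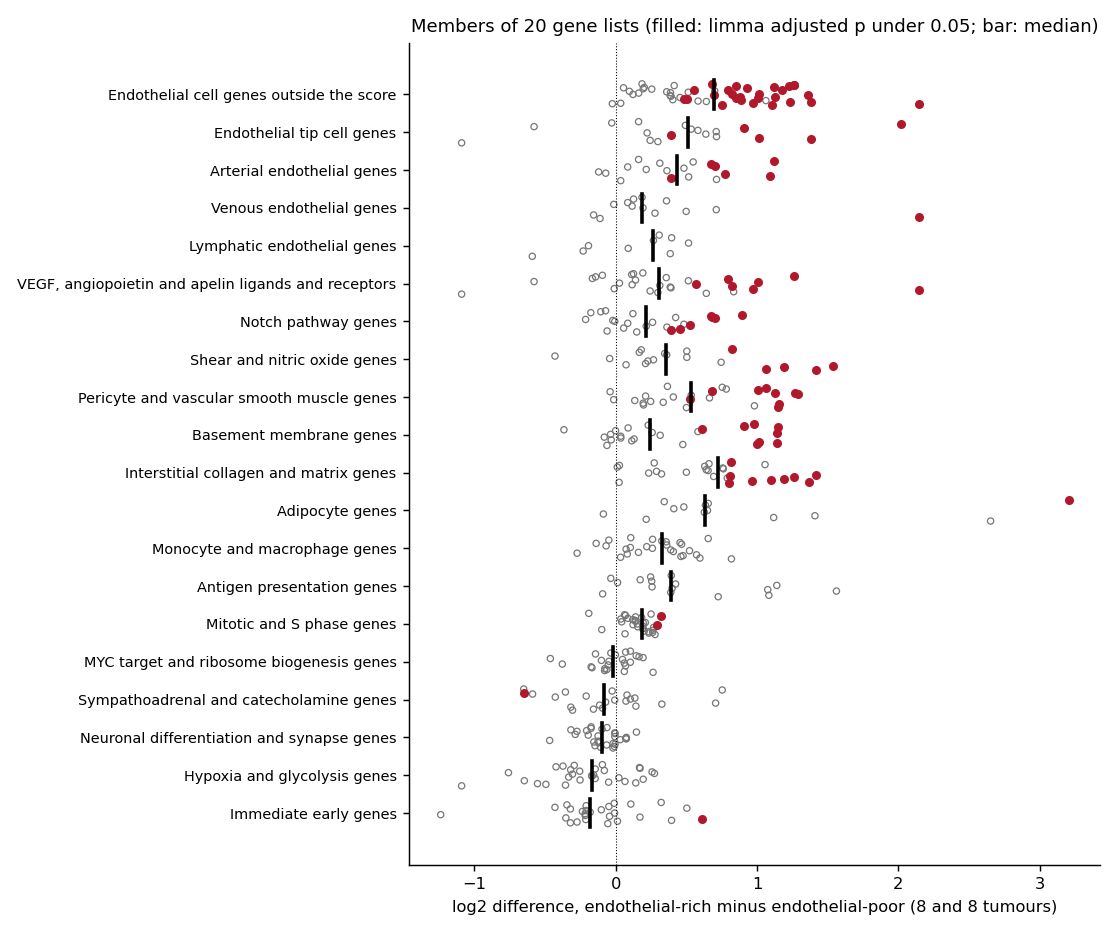
Log2 difference, endothelial-rich minus endothelial-poor (8 and 8 tumours, horizontal axis), of every measured member of 20 gene lists, with filled points for a limma adjusted p under 0.05 and a bar for each list's median. Medians run from 0.73 for interstitial matrix and 0.69 for endothelial genes to -0.17 for hypoxia and -0.18 for immediate early genes.

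Of 25 pericyte and smooth muscle genes, which mark the vessel wall, 9 were called higher, against 1.43% of all genes, and 0 lower, with a median of 0.53. Pdgfrb, the pericyte receptor, was at 8.36, 8.62 and 9.14 in rich tumours and at 6.50, 7.86 and 8.25 in poor tumours. The ranges did not overlap, and the difference was 1.01 (SE 0.20, limma adjusted p = 0.0139). Smooth muscle contractile genes differed by 1.29 for the myosin heavy chain Myh11 (SE 0.22), 1.27 for Myl9, 1.15 for the actin Acta2 (SE 0.22), 1.12 for Mylk, a myosin kinase (SE 0.22), and 1.06 for Tagln (SE 0.20). The amine oxidase Aoc3 differed by 1.15 and was called in 9 of the 16 fits that left out 1 tumour. Rgs5 at 0.78 and Cspg4 at 0.25, both used as pericyte markers, did not pass. The count was 0 with the adipocyte mean as a term, with a median of 0.50, 0 with genotype as a term, and 7 among deficient tumours, with a median of 0.62.

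Basement membrane genes were called higher in 8 of 24, against 1.43% of all genes (median 0.24): Col18a1, Col4a1, Col4a2, Lama4, Lamc1, Nid1, Nid2 and Sparc. Col18a1, whose product carries endostatin, was at 6.91, 7.28 and 7.46 in rich tumours and at 5.54, 6.30 and 6.67 in poor tumours, without overlap, and differed by 1.001 (SE 0.15, limma adjusted p = 0.00335). The type IV collagen chains Col4a1 and Col4a2 differed by 1.14 and 1.02, the laminin chains Lama4 and Lamc1 by 1.15 and 0.61, the linker Nid1 by 1.15 (SE 0.22, adjusted p = 0.0122) and the collagen-binding protein Sparc by 0.98. The other type IV chains, Col4a3 to Col4a6, lay between -0.03 and 0.13 without passing. The count was 5 without each of deficient tumours 1, 2, 3 and 10, 4 with genotype as a term and 8 among deficient tumours only.

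Interstitial matrix genes had 9 of 26 called higher, against 1.43% of all genes. All 26 had a positive difference, and their median was 0.73. Col6a3, a chain of type VI collagen, was at 8.17, 8.91 and 9.46 in rich tumours and at 6.04, 7.56 and 8.55 in poor tumours, with 6 of 8 rich tumours above all poor ones. It differed by 1.41 (SE 0.30, limma adjusted p = 0.0213). The fibrillar collagens Col5a2, Col1a2 and Col1a1 differed by 1.26 (SE 0.23), 1.10 (SE 0.21) and 0.96 (SE 0.19), and the proteoglycan Bgn by 0.80 (SE 0.14). Serpinh1, the chaperone of collagen folding and no member of the list, differed by 1.47 (SE 0.29, adjusted p = 0.0150). The fibroblast genes Pdgfra at 0.03 and Dcn at 0.32 did not pass. Matrix did not follow the score at its upper end: the list means of rich tumours lay between 7.19 and 7.67 and those of poor tumours between 6.11 and 7.14, yet the highest means of all 24, 8.40 in deficient tumour 16 and 8.22 in wild type tumour 1, were in tumours between the groups. Only 3 of the 8 tumours with most matrix signal were rich, whereas 7 of the 8 with least were poor. The count was 2 with genotype as a term, 4 among deficient tumours only, with a median of 0.81, and 0 with the adipocyte mean as a term, with a median of 0.57.

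**Figure D5:**
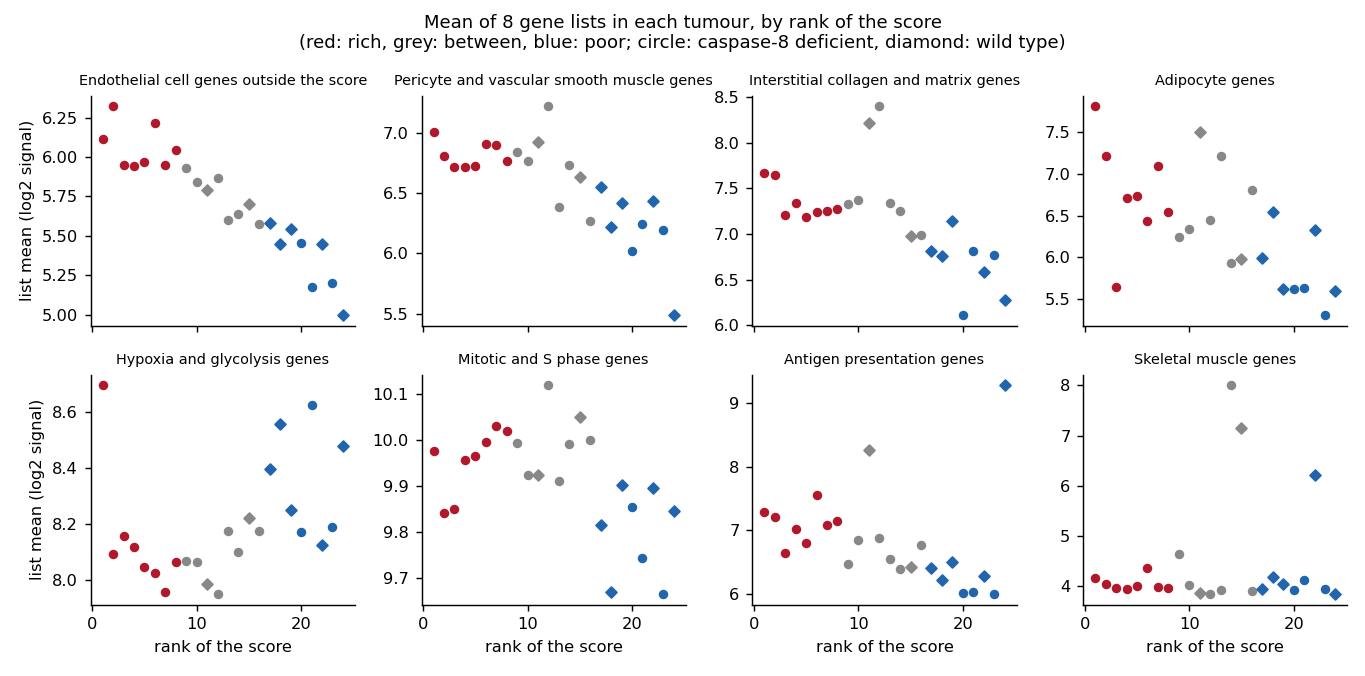
Mean log2 signal of 8 gene lists (vertical axes) in each tumour by rank of the endothelial score (horizontal axis, 1 is highest), with red for rich, grey for intermediate and blue for poor tumours, circles for caspase-8 deficient and diamonds for wild type. Endothelial means lie at 5.94 to 6.32 in rich and 5.00 to 5.58 in poor tumours; the highest antigen presentation mean, 9.28, is in wild type tumour 5, and the highest hypoxia mean, 8.70, in deficient tumour 3.

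Fat genes had large differences with wide spread. Ucp1, the uncoupling protein of brown fat, had the largest difference of the called genes. It was at 4.89, 8.26 and 10.31 in rich tumours and at 4.14, 4.51 and 6.39 in poor tumours, with 6 of 8 rich tumours above all poor ones. It differed by 3.21 (SE 0.65, limma adjusted p = 0.0170), a 9.24-fold ratio of signal. With genotype as a term and among deficient tumours the difference was 3.61 and did not pass (adjusted p = 0.0727 and 0.0841). Ucp1 was the sole adipocyte gene called of 13, against 1.43% of all genes called higher, while the list's median was 0.64. Adipoq, the adipocyte hormone adiponectin, was at 3.91, 7.47 and 9.21 in rich tumours and at 2.93, 3.32 and 7.17 in poor tumours, a difference of 2.65 (SE 0.80, adjusted p = 0.128). Fabp4, a lipid carrier of adipocytes and capillaries, was at 1.41 and the lipase Lipe at 0.63, and neither passed. Without deficient tumour 6, the rich tumour with the least fat signal (list mean 5.64), 4 adipocyte genes were called, among them Adipoq at 3.12.

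Among the other genes of largest difference were further genes of fat metabolism. Cox8b, a cytochrome oxidase subunit of muscle and brown fat, differed by 2.10 (SE 0.49, limma adjusted p = 0.0392) and the lipid synthesis enzyme Agpat2 by 1.69 (SE 0.40, adjusted p = 0.0445). With the adipocyte mean as a term they were at 0.36 and 0.24, and they were called in 4 and 3 of the 16 fits that left out 1 tumour. Ghr, the growth hormone receptor, differed by 1.64 (SE 0.33) and by 0.68 with that term. In contrast Tcim, a regulator of cell growth, differed by 1.81 (SE 0.27, adjusted p = 0.00335) and by 1.62 with the term, and Btnl9, a butyrophilin-like membrane protein, by 1.49 (SE 0.20, adjusted p = 0.00160) and by 1.42. In these last genes every rich tumour lay above every poor one: Tcim was at 6.77 to 7.93 in rich and 4.33 to 6.43 in poor tumours, and Btnl9 at 6.04 to 6.78 in rich and 3.95 to 5.79 in poor tumours.

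Of the 11 genes called lower in rich tumours, 7 had established names. Slc18a1, the vesicular monoamine transporter of chromaffin cells, was at 5.23, 5.45 and 6.07 in rich tumours and at 5.71, 6.20 and 6.53 in poor tumours. The groups overlapped, and the difference was -0.65 (SE 0.14, limma adjusted p = 0.0253). Rab6b, a neuronal Golgi GTPase, differed by -0.46 (SE 0.11), Diras1, a RAS-related GTPase of brain, by -0.47 (SE 0.11) and Cyp46a1, the neuronal cholesterol hydroxylase, by -0.46 (SE 0.10). Other probe sets of these genes were not called, and some had the opposite sign: 2 of Rab6b at 0.16 and 0.06, and 1 of Diras1 at 0.10. Phykpl, an enzyme of hydroxylysine breakdown, differed by -0.67 (SE 0.15), Rmnd1, a factor of mitochondrial translation, by -0.38 (SE 0.09) and Cblb, a ubiquitin ligase, by -0.28 (SE 0.06). These calls were fragile: leaving out 1 tumour gave 2 to 44 lower genes, the fewest without deficient tumour 1, 9 or 17 and the most without wild type tumour 4, and Slc18a1 was called in 10 of the 16 fits.

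Few tumour cell genes were called, but over all genes only 1.49% were called and 0.0605% called lower. At that share, lists of this size would hold few calls or none. Unadjusted limma counts stand against 2317 of 18187 genes. Slc18a1 was the sole call among 22 sympathoadrenal genes (median -0.08, with 8 members above 0), and 0 of 29 neuronal genes were called in limma (2 at an unadjusted p under 0.05, both lower), with a median of -0.10 and 24 members below 0. Th was at -0.65 (SE 0.24, adjusted p = 0.223), Dbh, the enzyme that makes noradrenaline, at -0.32 (SE 0.21, adjusted p = 0.564) and the lineage factor Phox2a at -0.43 (adjusted p = 0.235). Tbx2, a T-box factor also in the pericyte list, had the largest difference of the sympathoadrenal list, 0.75 (SE 0.19, adjusted p = 0.0632), in the other direction. Dbh was at -0.07 among deficient tumours and turned sign with the 6 highest against the 6 lowest scores, at 0.02. Among neuronal genes Stx1a was at -0.27, Syp at -0.32, Mapt at -0.47 and Kif5c at -0.12. Another probe set of Syp was at 0.25 and another of Stx1a at 0.08, while all others of Mapt and Kif5c were negative. Mouse Mycn was at 7.27, 7.46 and 7.70 in rich tumours and at 7.34, 7.67 and 7.86 in poor tumours, a difference of -0.17 (SE 0.09, adjusted p = 0.419). MYC target and ribosome biogenesis genes had 0 of 24 called (1 unadjusted, lower) and a median of -0.02, which lay between -0.07 and 0.01 when 1 tumour was left out.

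Cell cycle genes had small positive differences: 29 of 31 were above 0 with a median of 0.18. Of the 31, 2 were called higher, against 1.43% of all genes. Cenpf, a kinetochore protein, was at 9.82, 9.92 and 10.19 in rich tumours and at 9.51, 9.67 and 9.77 in poor tumours. The ranges did not overlap, and the difference was 0.30 (SE 0.06, limma adjusted p = 0.0253). Plk1, a mitotic kinase, differed by 0.32 (SE 0.07, adjusted p = 0.0301), while Ccnb2 at 0.26 (adjusted p = 0.0501) and Birc5 at 0.23 (adjusted p = 0.0644) did not pass. Leaving out 1 tumour gave between 0 calls, without deficient tumour 14, and 4, without deficient tumour 6, and among deficient tumours there were 0, with a median of 0.25, as with genotype as a term. The list mean did not rise steadily along the score: it was 9.955 in rich, 9.989 in intermediate and 9.799 in poor tumours. The highest mean, 10.12, was in deficient tumour 16, an intermediate tumour. Of the 8 tumours with the highest means 3 were rich and 0 poor, and of the 8 with the lowest 6 were poor.

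Hypoxia and glycolysis genes had mostly negative differences, and none was called. Of 30 genes 22 had a negative difference, and the median was -0.17. At an unadjusted limma p under 0.05 were 10, all lower, against 2317 of 18187 genes in either direction. The adjusted test was passed by 0, against 1.49% of all genes. Tpi1, a glycolytic enzyme, was at -0.29 (SE 0.08, adjusted p = 0.0777), Pdk1, the kinase that holds pyruvate from mitochondria, at -0.76 (SE 0.23, adjusted p = 0.138) and Aldoa, another glycolytic enzyme, at -0.35 (SE 0.12). Bnip3, a mitophagy receptor, was at -0.55, Ankrd37 at -0.49, the histone demethylase Kdm3a at -0.33 and Pfkp at -0.32. Leaving out deficient tumour 3 or wild type tumour 4 gave 2 genes called lower, and leaving out deficient tumour 6 or 9 gave 1. The list mean did not change steadily along the score: it was 8.146 in rich, 8.093 in intermediate and 8.351 in poor tumours. Deficient tumour 3 went against the rest: it had the highest endothelial score of all tumours and also the highest hypoxia list mean, 8.70, while the other 7 rich tumours lay between 7.96 and 8.16 and the poor tumours between 8.13 and 8.63.

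No immune gene of these lists was called, but over all genes only 1.49% were called. At that share, lists of this size would hold few calls or none. Unadjusted counts stand against 2317 of 18187 genes. In limma 0 of 27 macrophage genes passed (9 at an unadjusted p under 0.05, all higher; median 0.33), with Adgre1 at 0.82 (adjusted p = 0.120), C1qc at 0.57, Tyrobp at 0.65 and Lyz2 at 0.47. Antigen presentation genes had 0 of 16 called (3 unadjusted, all higher; median 0.39). H2-Aa, a class II chain, was at 7.58, 8.43 and 9.78 in rich tumours and at 5.10, 6.85 and 11.29 in poor tumours, a difference of 1.56 (SE 0.65, adjusted p = 0.307). The highest value of all 16 tumours was thus in a poor one, wild type tumour 5. Without that tumour 10 antigen presentation genes and 3 macrophage genes were called, H2-Aa at 2.19, and among deficient tumours, which leave it out, 6 antigen presentation genes were called, among them H2-Eb1 at 2.03, Cd74 at 1.68 and B2m at 1.29. Interferon response genes had 0 of 21 called (1 unadjusted) and lymphocyte genes 0 of 20 (1 unadjusted).

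In limma 1.49% of all genes were called, and 2317 of 18187 had an unadjusted p under 0.05. At that share of calls, a list of 9 to 18 genes would hold few or none. Other cell types and tissues that an abdominal tumour sample could hold showed no call. These were neutrophil (0 of 15), platelet (0 of 10), erythroid (0 of 12), Schwann cell (0 of 13), skeletal muscle (0 of 18), adrenal cortex (0 of 12), mesothelial (0 of 9) and kidney, liver and pancreas genes (0 of 18), with 0, 0, 0, 1, 1, 0, 1 and 0 of them at an unadjusted p under 0.05. Their medians lay between -0.27, in muscle, and 0.07, in mesothelium. The muscle median was 0.03 without wild type tumour 7 and 0.10 among deficient tumours. Immediate early genes, which respond to handling of tissue, had 1 of 27 called higher, against 1.43% of all genes, the phosphatase Dusp6 at 0.61. Their median of -0.18 was -0.06 without wild type tumour 2, -0.08 without deficient tumour 5, -0.11 without wild type tumour 6 and -0.03 among deficient tumours. Fos was at -1.24 (adjusted p = 0.136).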

How the data were processed

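Expression was measured in 24 tumours and 5 bone marrow samples on 3' arrays, from 100 ng of total RNA with a two-cycle protocol, per the labels' protocols. Per the submitters' processing notes, the authors deposited log2 values made by RMA with Partek 6.6. It is not stated whether the normalization took in all 29 arrays at once. RMA shrinks differences between low signals, and its quantile step removes any shift shared by most genes. The number of arrays limits the precision: the median 95% interval of a difference reached 0.204 to each side.

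Of 45101 probe sets 64 were controls. By the platform annotation 34945 probe sets carried 1 gene symbol and 932 several, and 9160 others are unnamed here. Of the 34945, 34741 matched an Entrez ID in a RefSeq gene table of GRCm38.p6, which gave current names. Each of 18193 genes was read from its probe set of highest mean signal across the arrays, and 18187 were tested after the 6 scoring genes were left out. No low values were filtered. For 38 of the called genes named by rule, 58 other probe sets existed, of which 49 had the same sign and 17 were called.

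Groups followed the score, and genotypes the labels. The 8 rich and 8 poor tumours were compared with limma 3.58.1 in R 4.3.3, with lmFit, eBayes and two-sided p-values adjusted by Benjamini-Hochberg at a threshold of 0.05. Makeup was compared by Fisher's exact test and RNA quality by an exact permutation test with SciPy 1.17.1. Figures were drawn with matplotlib 3.10.9. Promoter sequences are RefSeq's. The fit was also run on simulated data with independent genes and no groups chosen by a score, so that run does not check the present setting.

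The tumours, the 35 gene lists and the rules were chosen with earlier results of these data known. Named genes were the 12 of largest difference in each direction among called genes, passing over unnamed predicted loci, the 4 smallest p-values in each list described, 8 for the endothelial, VEGF, Notch, pericyte and hypoxia lists, and Casp8, Mycn, Th, Dbh, Vegfa, Kdr, Flt1 and Tek. Other members are examples of their list, and were chosen after their values were seen. Alternatives changed the group size, score, covariates, tumours included, choice of probe set, a filter on mean log2 signals under 5, normalization and variance model.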

Additional observations from a re-analysis of the deposited data

Results flagged for a closer look

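In each group of 8 tumours the highest or lowest value was set against its nearest neighbour, relative to the group's range. Among 280 groups examined, for the named genes, the list means, the score and the RNA quality measure, 23 held a tumour standing apart. Chance alone gives about 1 in 20 for separate groups. These groups shared tumours and genes, so the 23 are not separate findings and cannot be set against that rate. No cause was tested.

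Among endothelial-rich tumours, deficient tumour 10 stood highest for Lrg1, a venous and inflammatory glycoprotein, at 7.55 with the next at 5.38, and for the list means of venous genes (6.65, next 6.19), neutrophil genes (4.91, next 4.19), platelet genes (5.33, next 4.64) and erythroid genes (6.13, next 5.30). Deficient tumour 3 stood highest for hypoxia genes, at 8.70 with the next at 8.16. Deficient tumour 6 stood highest for neuronal genes, at 9.95 with the next at 9.75, and deficient tumour 13 for Stx1a, at 8.36 with the next at 8.25.

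Among endothelial-poor tumours, wild type tumour 5, the tumour of lowest score, stood apart most often. It was highest for H2-Aa at 11.29 (next 7.03), B2m at 12.17 (next 10.1), Cd74 at 9.48 (next 5.82) and H2-Eb1 at 10.2 (next 6.27). It was also highest for the list means of antigen presentation genes (9.28, next 6.50), interferon genes (6.07, next 4.74) and lymphocyte genes (4.71, next 4.08), and lowest for Kdr at 5.45 (next 6.34) and Pdgfrb at 6.50 (next 7.53). Wild type tumour 7 was highest for muscle genes at 6.21 (next 4.18). Wild type tumour 6 was highest for Cox8b at 6.45 (next 4.98), Phykpl at 8.03 (next 7.23) and kidney, liver and pancreas genes at 4.02 (next 3.87). Deficient tumour 9 was lowest for Id3 at 4.77 (next 6.23), and wild type tumour 4 for Mapt at 5.77 (next 7.005).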

How the results depend on the processing

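The 271 calls (260 higher, 11 lower) kept their sign in every alternative fit of 1 value per gene, 211 of 211 under the filter on low signal and 270 of 270 with the adipocyte mean. These fits share tumours with the fit that picked the genes, so the same sign was favoured in advance. With 6 against 6 tumours the count, rounded to 2 digits, was 1.1e+02 (1.1e+02 higher, 2 lower). Counts were 158 (146 higher) with genotype as a term, 39 (39 higher, 0 lower) in the higher title series and 1 (0 higher, 1 lower) in the lower one, where fewer tumours entered. With the adipocyte mean as a term there was 1 call (1 higher, 0 lower), and 98 (94 higher, 4 lower) when the score was fitted as a continuous measure over 24 tumours with that mean. The lower count was 29 with 12 against 12 tumours, 27 with the continuous score, 19 with it over 17 deficient tumours, 35 with title series as a term, 20 with title series and genotype, 46 in deficient tumours, 18 with genes of mean log2 of 5 or more, 22 with quantile normalization over the 24 tumours, 39 with arrays centred on their medians, 23 with array weights and 30 over every probe set, and the cause was not tested. Centring on medians gave 196 higher against 39 lower. Leaving out 1 tumour gave 181 to 341 calls, with 175 to 324 higher and 2 to 44 lower. The Fisher p for genotype was 0.182 with 6 against 6, 0.0108 with 10 against 10 and 0.0687 with 12 against 12.

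These genes, none called, changed sign, and the cause was not tested. With the adipocyte mean as a term Lrg1 was at -0.061 and Casp8 at -0.0032. With the continuous score and that mean Icam1 was at -0.22, H2-Aa at -0.37, B2m at -0.32, Cd74 at -0.39, H2-Eb1 at -0.51, Casp8 at -0.19 and Dbh at 0.23. In the lower title series Syp was at 0.063 and Flt1 at -0.23. With 6 against 6 tumours Dbh was at 0.016 and Vegfa at 0.0079, and with the continuous score over deficient tumours they were at 0.056 and 0.18. Vegfa was at 0.064 with genotype as a term and among deficient tumours, 0.0073 with probe sets of a gene averaged and 0.0083 without deficient tumour 10. The fits of the continuous score with genotype, within deficient tumours or with the adipocyte mean, the fit with that mean as a term and the interaction were chosen after seeing the data. No paired analysis was possible because the replicate numbers only follow the order of deposition. Low signals bound the precision, since RMA compresses them.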

Other observations

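Of the 271 called genes, 195 were in none of the 35 lists. The genes in these paragraphs were chosen after their values were seen, and each passed the limma adjusted test in the 8 rich and 8 poor tumours. Several are known from endothelium: Rasgrp3, a RAS activator, was higher by 1.27 in rich tumours, Tmem204 by 1.23, the CDC42 activator Fgd5 by 1.05, Arap3 by 0.97, Meox2, a homeobox factor of vessels, by 0.96, the junctional protocadherin Pcdh12 by 0.87, Tspan12, a tetraspanin of retinal vessel signalling, by 0.83, Gimap8 by 0.70, Jcad by 0.70, Foxc2, a factor of lymphatic valves, by 0.64, Clec1a by 0.39 and Bcl6b by 0.38.

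Others are known from mesenchyme. Itga1, a collagen receptor, was higher by 1.38, Snai2 by 1.37, Kitl, the ligand of KIT, by 1.33, Aspn, a small proteoglycan, by 1.33, Cdh11, a cadherin of fibroblasts, by 1.21, the metalloprotease Adam12 by 1.06, Prrx1 by 0.70 and Tbx18, a factor of pericytes, by 0.49. The paired effectors of Hippo signalling Wwtr1 and Yap1 were higher by 0.99 and 0.66. The mitotic genes Aspm, Gtse1, Hmmr and Kif23 were higher by 0.33, 0.33, 0.31 and 0.31. Cflar, which encodes the caspase-8 relative c-FLIP, was higher by 0.69.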
